A study of Mus musculus with 6 samples.

Results

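Heparan sulfate is a sulfated sugar chain that is carried on the cell surface by core proteins and that binds growth factors, morphogens and matrix proteins. The extracellular sulfatases Sulf1 and Sulf2 remove sulfate groups from glucosamine residues of finished chains and so change which ligands the chains can hold. Glypicans are core proteins tethered to the membrane by a lipid anchor, whereas syndecans span the membrane and bind adaptors of the cell cortex, and fibroblasts are known to make members of both families.

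Transcripts of 10 genes of this system were examined in mouse embryonic fibroblasts (MEFs), namely 2 sulfatases (Sulf1, Sulf2), 4 glypicans (Gpc1, Gpc3, Gpc4, Gpc6) and 4 syndecans (Sdc1 to Sdc4). Each had a row of its own among the 51499 loci of the count table. The intervals that the authors' table gives for Sulf2, Gpc1 and Gpc3 are wider than the genes and hold other genes too (Ncoa3 in that of Sulf2). Positions of the 10 genes below are therefore those in GENCODE M21 on the same build. Distances to neighbouring loci, and the windows around the genes, were measured from the authors' intervals. The genes were chosen by name with their values in this comparison already known, among them the near-complete loss of Sulf1 counts, so their levels are given as a description without p-values, and the number of them called is printed below only beside the share of all loci called. The groups were WT cells, which carry Yme1l fl/fl alleles, and Yme1l-/- cells, in which Cre had recombined the floxed alleles of the gene for the mitochondrial inner membrane protease YME1L. Both were immortalized with SV40, and each group was 3 independent cultures. According to the methods of the study, cells were expanded as genotyped clones after Cre delivery, so genotype and clone cannot be told apart, and the labels name no batch.

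The libraries held 33180867 to 49351107 counted fragments, with the 2 deepest in Yme1l-/-, and 1 fragment was worth 0.0196 CPM (counts per 1e6 fragments of the scaled library) in the library with the largest scaled total. Yme1l1 itself, the targeted gene, had 6327, 6292 and 5968 fragments in WT against 1327, 1963 and 2067 after deletion, or 20.7% of WT in CPM. Of 10 fibroblast markers 8 lay above 1 CPM in WT and 7 in Yme1l-/-, since Thy1 and Lum did not in either and Dcn did not in Yme1l-/-, and the summed level of the 10 was 10835 to 11397 CPM in WT and 6643 to 7129 CPM in Yme1l-/-. Members of that list differed, since 6 of the 8 tested were called lower, Col1a1 was called higher (1615 to 2176 CPM) and Pdgfra was not called. Sums of the other cell type lists were at most 34.8 CPM in WT and 0.294 to 0.657 CPM in Yme1l-/- for epithelial markers, with Krt18 nearly all of the WT sum, and no other list exceeded 4.14 CPM in any library. The leukocyte markers Adgre1 and Cd3e and the muscle marker Myog had no fragment. WT replicate 2 stood apart for some matrix genes, with 9860 fragments of Col3a1 where the other WT cultures had 2858 and 2974. The part of these shifts in the results on heparan sulfate genes was not tested, and in bulk RNA fewer cells of a type and less RNA per cell cannot be told apart.

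All 10 genes passed the filter on low counts, Sulf1 through WT and Gpc6 through Yme1l-/-. Of the 10, 9 were called by edgeR's quasi-likelihood test (adjusted p under 0.05), 2 of them higher and 7 lower in Yme1l-/-. Over the whole experiment 67.7% of 13867 tested loci were called, 33.6% higher and 34.1% lower. A difference of at least 2-fold was seen for 6 of the 10 genes, against 17.7% of all tested loci that were called at that size. The CPM of the genotypes did not overlap for 9 of the 10 genes, against 71.9% of tested loci. Since the genes were chosen on this contrast, nothing is read from these shares. The median log2 fold change (Yme1l-/- over WT) was -0.74 over the 10 genes and -0.00411 over all tested loci.

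Promoter sequence was taken from RefSeq (GRCm38.p6, the build of the deposited loci) as the 250 bases before each annotated start, and 6 of the 10 genes had an entry, Sulf2 with 2 starts. Shown are those that hold no base of a GENCODE exon, so that Sulf2, Sdc3 and Sdc4, which were all lower in Yme1l-/- and of which Sdc4 was the most abundant gene, can be read beside Gpc3, which was nearly silent. Capitals mark the GC box (GGGCGG or its complement CCGCCC) and TATAAA. The coordinates were chr2:166155684-166155933 for Sulf2, chr4:130792287-130792536 for Sdc3, chr2:164443189-164443438 for Sdc4 and chrX:52613975-52614224 for Gpc3. Sdc3 lies on the plus strand and the others on the minus strand. The Sdc4 stretch lies wholly within the GENCODE interval of that gene given below, so it is not upstream of every annotated start.
Sulf2: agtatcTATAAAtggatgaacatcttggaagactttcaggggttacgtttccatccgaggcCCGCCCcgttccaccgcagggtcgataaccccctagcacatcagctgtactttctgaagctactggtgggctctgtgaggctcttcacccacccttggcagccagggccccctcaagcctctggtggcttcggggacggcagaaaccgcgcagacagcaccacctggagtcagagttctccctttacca
Sdc3: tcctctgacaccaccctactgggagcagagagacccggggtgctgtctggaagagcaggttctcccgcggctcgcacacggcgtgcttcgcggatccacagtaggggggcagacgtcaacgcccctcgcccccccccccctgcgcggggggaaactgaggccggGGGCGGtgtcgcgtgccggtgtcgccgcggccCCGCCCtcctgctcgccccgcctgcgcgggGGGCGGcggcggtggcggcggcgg
Sdc4: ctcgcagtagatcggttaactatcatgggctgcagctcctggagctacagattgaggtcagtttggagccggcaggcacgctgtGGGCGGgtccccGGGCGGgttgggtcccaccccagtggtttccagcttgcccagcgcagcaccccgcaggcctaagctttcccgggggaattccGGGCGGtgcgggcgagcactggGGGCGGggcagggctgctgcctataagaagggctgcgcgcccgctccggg
Gpc3: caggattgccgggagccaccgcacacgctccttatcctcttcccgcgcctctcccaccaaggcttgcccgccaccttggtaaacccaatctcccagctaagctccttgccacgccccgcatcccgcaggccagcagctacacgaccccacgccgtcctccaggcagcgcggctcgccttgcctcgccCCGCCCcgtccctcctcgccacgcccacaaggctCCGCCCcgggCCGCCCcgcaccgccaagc
A GC box on either strand was present in 32.7% of 32851 RefSeq promoters of this length and TATAAA, read on either strand, in 12.4%. The Sulf2 promoter shown held 1 GC box and 1 TATAAA, Sdc3 and Gpc3 held 3 GC boxes each and Sdc4 held 4, and none of the 4 held the E box CACGTG, found in 6.02% of promoters. The number of CpG pairs was 10 for that of Sulf2, 32 for Sdc3, 19 for Sdc4 and 25 for Gpc3, where the median promoter had 6. The second Sulf2 start, not shown, had 21 CpG pairs and neither a GC box nor TATAAA. The Gpc3 and Sdc3 promoters thus shared 3 GC boxes and many CpG pairs, although the transcripts differed widely in level.

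Among the sulfatases, Sulf1 was nearly lost and Sulf2 was reduced. Sulf1 (ENSMUSG00000016918, mm10 chromosome 1, 12692277 to 12861192, plus strand) had 3808, 3970 and 3940 fragments in the WT cultures and 9, 14 and 21 in the Yme1l-/- cultures. Every WT culture was high, and every Yme1l-/- culture was near the limit of detection without being at 0. The mean fell from 118.9 ± 3.43 to 0.316 ± 0.0842 CPM (SD, n = 3 each), which is 0.265% of WT or 377-fold lower. The authors' pooled FPKM went from 23.6 to 0.178, or 133-fold lower. The log2 fold change was -8.51 ± 0.10 (SE), and 72 of the 13867 tested loci had a larger fall.

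Sulf2 (ENSMUSG00000006800, chromosome 2, 166073089 to 166155663), which has the same enzymatic activity, had 1738, 1811 and 1755 fragments in WT and 544, 811 and 835 in Yme1l-/-. The groups did not overlap, and a clear signal was left in each Yme1l-/- culture. The level went from 53.8 ± 1.41 to 16.0 ± 0.427 CPM (SD, n = 3), 29.7% of WT (log2 fold change -1.75 ± 0.05, SE).

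To compare levels between genes, CPM was divided by the transcript length that the authors' FPKM value implies, taken from the genotype in which the gene was higher. On this per-length scale Sulf1 was above Sulf2 in WT, with 23.6 ± 0.678 against 15.3 ± 0.400 CPM per kilobase (SD, n = 3). In Yme1l-/- the order was turned, with 0.0626 ± 0.0167 for Sulf1 and 4.55 ± 0.121 for Sulf2. Sulf1 made up 60.7 ± 0.331% of the summed sulfatase level in WT and 1.35 ± 0.324% in Yme1l-/- (SD, n = 3), and the rest was Sulf2. From the authors' pooled FPKM of each genotype the Yme1l-/- share of Sulf1 was 3.46%, and from CPM without length it was 1.93%. The sum of both fell from 38.9 ± 1.05 to 4.61 ± 0.135 CPM per kilobase, 11.9% of WT.

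**Figure D1:**
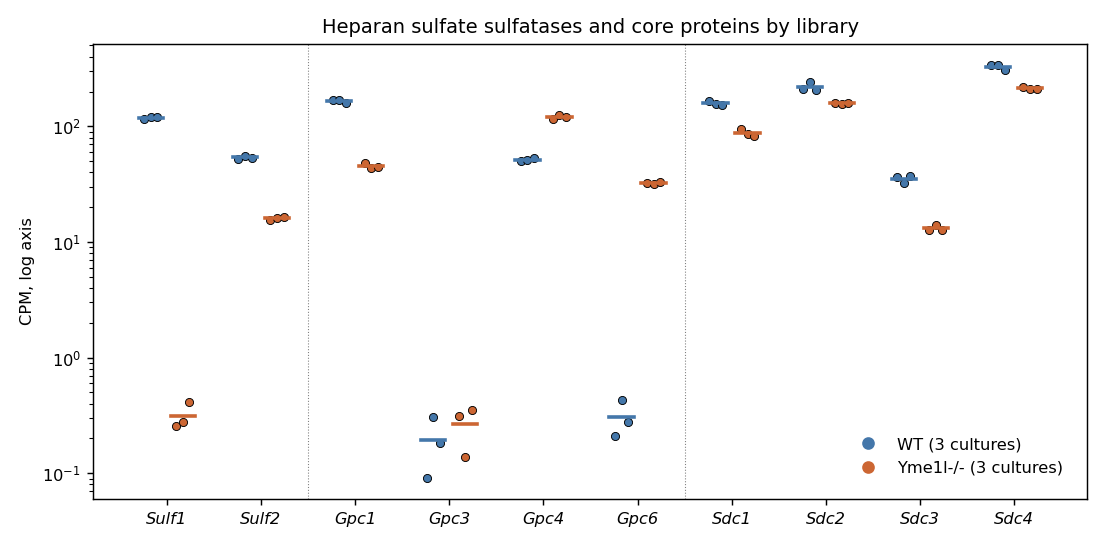
CPM (log axis) of the 10 genes in each library, with WT in blue, Yme1l-/- in orange and a bar at the mean of the 3 cultures. Dotted lines part sulfatases, glypicans and syndecans. Sulf1 (118.9 to 0.316 CPM) and Gpc6 (0.305 to 32.3 CPM) lie far apart between genotypes in opposite directions, and the points of Gpc3 overlap.

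The glypicans moved in different directions, with Gpc1 lower, Gpc4 and Gpc6 higher, and Gpc3 near the detection limit throughout. Gpc1 (ENSMUSG00000034220, chromosome 1, 92831645 to 92860779), a widely expressed glypican that binds fibroblast growth factors, had 5545, 5514 and 5239 fragments in WT and 1674, 2191 and 2262 in Yme1l-/-. All WT values were higher than all Yme1l-/- values. The mean fell from 165.4 ± 4.36 to 45.2 ± 2.31 CPM (SD, n = 3), 27.3% of WT (log2 fold change -1.87 ± 0.05, SE).

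Gpc6 (ENSMUSG00000058571, chromosome 14, 116925315 to 117976544) and Gpc4 are close relatives within the family. Gpc6 had 7, 14 and 9 fragments in WT and 1124, 1613 and 1680 in Yme1l-/-. It was thus barely detected in each WT culture and plainly present in each Yme1l-/- culture, the mirror image of Sulf1. The level rose from 0.305 ± 0.111 to 32.3 ± 0.535 CPM (SD, n = 3), 106-fold (log2 fold change 6.72 ± 0.14, SE). A larger rise was seen at 18 of the tested loci.

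Gpc4 (ENSMUSG00000031119, chromosome X, 52053021 to 52165252, minus strand) had 1653, 1684 and 1735 fragments in WT and 4013, 6261 and 6092 in Yme1l-/-. Unlike Gpc6 it was already abundant in WT, and every Yme1l-/- culture lay above every WT culture. The level rose from 51.5 ± 1.60 to 119.4 ± 4.75 CPM (SD, n = 3), 2.32-fold (log2 fold change 1.21 ± 0.05, SE).

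Gpc3 (ENSMUSG00000055653, chromosome X, 52272426 to 52613950, minus strand), a glypican known to bind hedgehog ligands, had 3, 10 and 6 fragments in WT and 11, 7 and 18 in Yme1l-/-. These values overlapped, and the log2 fold change of 0.45 ± 0.53 (SE) was within its error. The locus lies 107.2 kb from Gpc4, its neighbour on the X chromosome, whose level was 119.4 CPM in Yme1l-/-. With means of 0.193 ± 0.108 and 0.269 ± 0.114 CPM (WT and Yme1l-/-, SD, n = 3), no difference was detectable at this depth.

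The summed glypican level differed little between genotypes, in a direction that depends on the length used, while its makeup changed a great deal. The sum was 61.4 ± 0.726 CPM per kilobase in WT and 71.2 ± 1.26 in Yme1l-/- (SD, n = 3), 116% of WT, but 90.7% of WT when CPM was summed without length. Gpc1 gave 66.8 ± 1.23% of the sum in WT and 15.7 ± 1.08% in Yme1l-/-. Gpc4 moved the other way, from 32.9 ± 1.21% to 65.7 ± 1.46%, and became the leading glypican. Gpc6 went from 0.201% to 18.4 ± 0.449%, and Gpc3 gave 0.149% and 0.180%. Whether Gpc6 or Gpc1 was higher in Yme1l-/- depended on length, since Gpc6 gave 14.2% against 16.6% of Gpc1 with annotated lengths and 16.4% against 22.9% without length. Gpc4 led in Yme1l-/- and Gpc1 in WT by each of these measures.

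**Figure D2:**
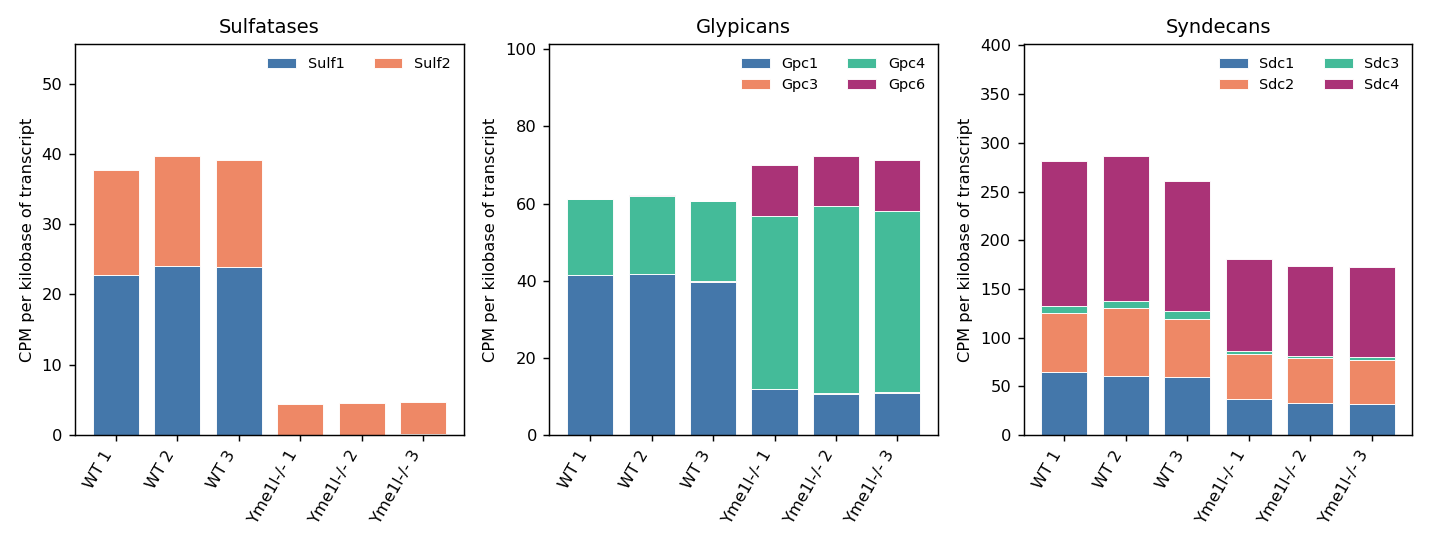
Stacked bars of CPM per kilobase of transcript for sulfatases, glypicans and syndecans in each of the 6 libraries, with axes that start at 0 and differ between panels. The sulfatase bars shrink to 11.9% of WT, the glypican bars are of similar height (116% of WT, but 90.7% when summed without length) and pass from mostly Gpc1 to mostly Gpc4 with Gpc6, and the syndecan bars shrink to 63.5% with like proportions.

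All 4 syndecans were lower in Yme1l-/-, with smaller fold changes than Sulf1 or Gpc1. Sdc3 (ENSMUSG00000025743, chromosome 4, 130792537 to 130826319), best known from the nervous system, had 1210, 1061 and 1215 fragments in WT and 444, 705 and 650 in Yme1l-/-. It was the least abundant syndecan and showed the largest relative fall of the 4, without overlap of the groups. The level went from 35.4 ± 2.60 to 13.1 ± 0.727 CPM (SD, n = 3), 37.1% of WT (log2 fold change -1.43 ± 0.07, SE).

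Sdc1 (ENSMUSG00000020592, chromosome 12, 8771323 to 8793715), a syndecan typical of epithelia and plasma cells, had 5499, 5124 and 5001 fragments in WT and 3353, 4321 and 4177 in Yme1l-/-. The groups did not overlap, and Yme1l-/- replicate 1, the shallowest of its group, had the highest Sdc1 CPM of that group. The level went from 158.5 ± 6.73 to 87.8 ± 7.16 CPM (SD, n = 3), 55.4% of WT (log2 fold change -0.85 ± 0.06, SE). The epithelial keratin Krt18 was also lower, with 1048, 1086 and 1012 fragments in WT and 0, 1 and 3 in Yme1l-/-. Of the other epithelial markers listed, Epcam was called lower. Krt8 (5, 9 and 15 fragments in WT, 14, 9 and 4 in Yme1l-/-), Cdh1 and Cldn4 overlapped at low counts. The part of these markers in the Sdc1 result was not tested. The median tested locus of chromosome 12 was also lower, at -0.44, and with this median removed the log2 fold change of Sdc1 was -0.42.

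Sdc4 (ENSMUSG00000017009, chromosome 2, 164424247 to 164443887), a component of focal adhesions, had 11275, 11182 and 9958 fragments in WT and 7634, 10560 and 10733 in Yme1l-/-. Raw fragments overlapped because the Yme1l-/- libraries 2 and 3 were deeper, and CPM did not. The level went from 328.9 ± 20.8 to 212.6 ± 4.72 CPM (SD, n = 3), 64.7% of WT (log2 fold change -0.63 ± 0.05, SE).

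Sdc2 (ENSMUSG00000022261, chromosome 15, 32920723 to 33034935), a syndecan of mesenchymal cells, had 6948, 7923 and 6770 fragments in WT and 5576, 7921 and 8037 in Yme1l-/-. As for Sdc4, only the scaled values were separate, at 207.2 to 241.9 CPM in WT and 157.0 to 159.3 CPM in Yme1l-/-. The mean went from 219.6 ± 19.3 to 158.0 ± 1.16 CPM (SD, n = 3), 71.9% of WT (log2 fold change -0.48 ± 0.06, SE), the smallest among the 9 called genes. Loci of chromosome 15 had a median log2 fold change of 0.59, and with it removed Sdc2 was at -1.07.

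The syndecans kept similar proportions with Sdc4 leading in both genotypes, although the shares of Sdc1, Sdc2 and Sdc3 did not overlap between genotypes. Sdc4 gave 52.0 ± 0.842% of the summed per-length level in WT and 53.0 ± 0.456% in Yme1l-/- (SD, n = 3). Sdc2 gave 22.9 ± 1.43% and 26.0 ± 0.556%, Sdc1 gave 22.4 ± 0.969% and 19.5 ± 1.03%, and Sdc3 gave 2.72 ± 0.317% and 1.59 ± 0.116%. The sum fell from 276.4 ± 13.9 to 175.5 ± 4.99 CPM per kilobase (SD, n = 3), 63.5% of WT. Among glypicans and syndecans together, the share of glypicans was 18.2 ± 0.627% in WT and 28.9 ± 0.906% in Yme1l-/-.

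**Figure D3:**
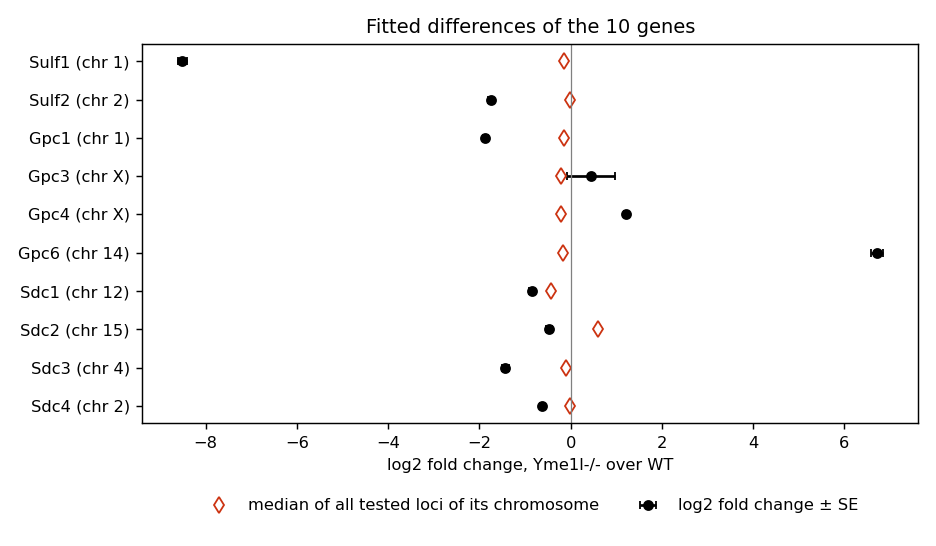
Log2 fold change of each gene (points, with bars of ± SE) and the median log2 fold change of all tested loci on the same chromosome (open diamonds). Sulf1 (-8.51) and Gpc6 (6.72) lie far from their chromosome medians of -0.15 and -0.17, and Sdc1 (-0.85) lies nearest to its own (-0.44) among the genes called lower.

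Ordered by CPM per kilobase, the WT cells had Sdc4 first at 143.8 ± 9.13 (SD, n = 3), then Sdc2 and Sdc1 at 63.3 ± 5.57 and 61.7 ± 2.61, whose values overlapped. Gpc1 (41.0), Sulf1 (23.6), Gpc4 (20.2), Sulf2 (15.3) and Sdc3 (7.50) followed without overlap of neighbours, and Gpc6 and Gpc3 shared the lowest place at 0.123 and 0.0919. In Yme1l-/- Sdc4 was again first at 93.0 ± 2.05, and Gpc4 at 46.8 ± 1.86 had joined Sdc2 at 45.5 ± 0.340, with overlapping values. Sdc1 (34.2), Gpc6 (13.1), Gpc1 (11.2), Sulf2 (4.55) and Sdc3 (2.79) followed, and Gpc3 and Sulf1 overlapped at the lowest place with 0.128 and 0.0626. With annotated lengths Gpc1 stood above Gpc6 in Yme1l-/- and Sdc2 above Sdc1 in WT without overlap. Sulf1 was in the fifth place in WT with or without length and at the level of Gpc3 in Yme1l-/-.

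The surroundings of these loci were compared with the loci themselves, in most detail for the genes with the largest fall and the rises. Sulf1 had 4 tested loci within 1000 kb, all on the side of the higher coordinates and all called lower, where 34.1% of all tested loci were. Slco5a1 encodes an organic anion transporter family member, and its interval lies 5.36 kb beyond that of Sulf1. It went from 3.53 to 0.0594 CPM (log2 fold change -5.69 ± 0.44, SE) and passed the filter through WT alone. The other three, Tram1, Lactb2 and Ncoa2, had log2 fold changes of -0.97, -0.78 and -0.40. Among these 4, only the adjoining Slco5a1 was lower by at least 2-fold.

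Around Gpc6, 6 loci were tested within 1000 kb, 2 of them called higher and 2 lower, near the 33.6% and 34.1% of all tested loci. The nearest, Tgds and Gpr180, had log2 fold changes of -0.02 and -0.14, and the largest rise was 0.51 at Abcc4. Sox21 went from 0.366 CPM in WT to no fragment in Yme1l-/-, and it passed the filter through WT alone. Around Gpc4, 1 of 9 tested loci was called higher and 4 lower, against 33.6% and 34.1% of all tested loci. The higher one was Hs6st2, a sulfotransferase that adds sulfate at the glucosamine position the sulfatases clear, 371.2 kb away, with a log2 fold change of 0.31. No tested neighbour of Gpc6 or Gpc4 rose by as much as the gene itself. Around Sdc1, 9 of 14 tested loci were called lower and 2 higher (34.1% and 33.6% of all tested loci). The median log2 fold change was -0.53 beside -0.44 for the whole of chromosome 12. Among those lower, Gdf7 and AC122860.2 had no fragment in Yme1l-/- and passed the filter through WT alone. The 2 higher were Osr1 (4.03 to 40.9 CPM) and Matn3, which was low in both genotypes (0.192 to 0.620 CPM). For Sulf2 the window was set from the authors' wider interval. It took in Slc12a5 and Ncoa5, which lie more than 1000 kb from the gene itself. Of its 21 tested loci, 6 were called lower and 6 higher (34.1% and 33.6% of all tested loci), with a median of 0.04. Of the higher ones 5, Slc12a5 among them, rose by at least 2-fold. Over all tested loci 17.7% were called at that size in either direction. Medians around the other 5 genes lay between -0.51 (Sdc2) and 0.07 (Gpc3).

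**Figure D4:**
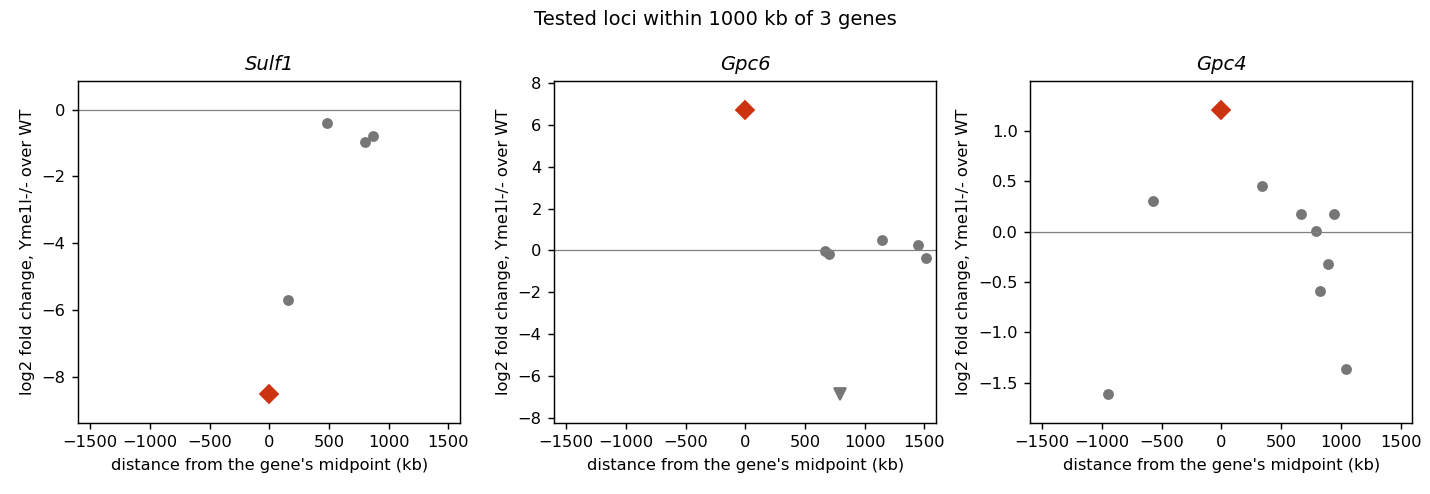
Log2 fold change of tested loci within 1000 kb of Sulf1, Gpc6 and Gpc4 (grey points) against the distance between midpoints in kb, with the gene itself as a red diamond and a triangle for a locus with 0 fragments in all Yme1l-/- libraries, whose position depends on the prior count. Near Sulf1 (-8.51) the adjoining Slco5a1 lies at -5.69 and all others above -1, and near Gpc6 (6.72) no neighbour exceeds 0.51.

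Genes that make, supply, release or break down heparan sulfate, other core proteins, partners of syndecans and growth factor target genes were listed to set the 10 genes in their pathway, 93 genes in 9 lists. Of these, 79 passed the filter, 21 were called higher and 42 lower, 79.7% in all against 67.7% of all tested loci. Their median log2 fold change was -0.23. The lists were drawn up with earlier results of these data known. Apart from Gpc2, the genes given with an adjusted p below were named because they were called. An adjusted p under 0.05 printed for them restates that choice and is no further support. With at least 10 counts required in every sample, 72 were tested, 19 called higher and 37 lower (77.8% called, against 68.3% of 12493 loci).

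Genes that modify the chain, the step that the sulfatases edit afterwards, counted 3 higher and 7 lower of 11 tested (33.6% and 34.1% of all tested loci), 4 of them Hs3st genes that passed the filter through a single genotype, with a median log2 fold change of -0.61. Those for the 3-O-sulfotransferases, which add a rare sulfate group needed for antithrombin binding among others, held the largest differences. Hs3st3a1 had 178, 127 and 163 fragments in WT and none in any Yme1l-/- library, at least 55.4-fold lower. Hs3st3b1 had 30, 65 and 24 in WT and none in Yme1l-/-, at least 14.1-fold lower. Hs3st1 had 15, 15 and 18 in WT and none in Yme1l-/-, at least 5.69-fold lower. These 3 transcripts were thus present in each WT culture and undetected in Yme1l-/-, and since they passed the filter through WT alone no p is given for them. No p is given for Hs3st6, Slc35d2, Notum and Spry4 below for the same reason of a low level in a genotype. Hs3st6 was low in both, with 7, 6 and 22 fragments in WT and 33, 37 and 36 in Yme1l-/- (log2 fold change 1.14 ± 0.42, SE). Its call was lost in 5 of the alternatives, and its log2 fold change was 0.87, 0.82 and 1.98 without WT replicate 1, 2 and 3.

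The genes for sulfation at the position that Sulf1 and Sulf2 clear moved in different directions. Hs6st1 fell from 69.1 ± 6.18 to 29.6 ± 0.670 CPM (SD, n = 3, log2 fold change -1.22 ± 0.07, SE), and Hs6st2 rose from 85.6 ± 1.94 to 105.9 ± 1.55 CPM, 0.31 ± 0.04. This pair was chosen after its values were seen.

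Of 8 genes for the linkage to the core protein, 3 were called higher and 4 lower, and of 4 for chain polymerisation 1 was higher and 2 lower, where 33.6% and 34.1% of all loci were. Xylt1, one of the enzymes that start the linkage, fell from 4.34 ± 0.183 to 0.638 ± 0.120 CPM (SD, n = 3, log2 fold change -2.74 ± 0.17, SE, edgeR adjusted p = 1.09e-07). Xylt2, which catalyses the same step and was more abundant, rose from 27.1 ± 1.29 to 41.3 ± 0.485 CPM (SD, n = 3). Extl1, a relative of the chain polymerases Ext1 and Ext2, rose from 0.649 to 4.66 CPM (log2 fold change 2.84 ± 0.21, SE, edgeR adjusted p = 3.44e-07). Both polymerases themselves were abundant in each genotype. Ext1 went from 221.7 ± 3.62 to 184.5 ± 9.22 CPM (SD, n = 3) and was called lower, and Ext2 averaged 119.9 CPM in both and was not called.

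Among 10 genes for precursors, 4 were higher and 4 lower (33.6% and 34.1% of all tested loci), counting as Ugdh a merged locus that also holds Smim14 and Gm43552. Papss2, a synthase of the sulfate donor, rose from 2.72 to 15.9 CPM (log2 fold change 2.55 ± 0.12, SE, edgeR adjusted p = 7.81e-09). Slc35d2, a nucleotide sugar transporter, rose from 0.396 to 3.46 CPM (log2 fold change 3.12 ± 0.27, SE). Their more abundant relatives Papss1 and Slc35d1 were lower, at -0.23 and -0.47. Of 9 genes for breakdown in lysosomes, 2 were higher and 1 lower, the lowest share of calls among the lists (33.3%, against 67.7% of all tested loci).

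Of 6 tested genes for remodelling and release of the proteins, 3 were higher and 3 lower, against 33.6% and 34.1% of all tested loci. Mmp14, a membrane protease that sheds syndecans, fell from 487.1 ± 7.55 to 188.3 ± 6.70 CPM (SD, n = 3, log2 fold change -1.37 ± 0.04, SE, edgeR adjusted p = 4.3e-10). Notum, a secreted enzyme that acts on Wnt proteins with the help of glypicans, fell from 1.44 to 0.207 CPM (log2 fold change -2.79 ± 0.35, SE). Sumf1, which activates the sulfatases by modifying their catalytic cysteine, rose by 0.63 on the log2 scale while its substrates Sulf1 and Sulf2 were lower.

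The other core proteins counted 1 higher and 6 lower of 9 tested, 77.8% called against 67.7% of all tested loci, with a median log2 fold change of -0.86. Nrp1, a receptor for semaphorins and VEGF that can carry a chain, fell from 204.7 ± 15.7 to 60.7 ± 0.592 CPM (SD, n = 3, log2 fold change -1.75 ± 0.06, SE, edgeR adjusted p = 5.91e-10). Col18a1, a basement membrane collagen, fell from 78.1 to 27.4 CPM (log2 fold change -1.51 ± 0.05, SE, edgeR adjusted p = 4.93e-10). Spock3, a secreted testican, had 104, 283 and 83 fragments in WT and none in Yme1l-/-, at least 55.7-fold lower, and at least 33.1-fold lower without WT replicate 2. It too passed the filter through WT alone, and its call was lost without WT replicate 1 (edgeR adjusted p = 0.0875) and with no filter beyond a total of 1 count (0.0632). The locus named for Gpc2 also holds Gal3st4 and Gm43720, so its log2 fold change of -1.06 ± 0.11 (SE, edgeR adjusted p = 6.18e-06) cannot be divided among them. Gpc5, which lies 400.1 kb from Gpc6, had 0 fragments in all 6 libraries.

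Of the 6 partners of syndecans 1 was higher and 5 lower, where 67.7% of all tested loci were called and 34.1% were lower. Sdcbp2, which binds the syndecan tail, fell from 1.53 ± 0.169 to 0.763 ± 0.0459 CPM (SD, n = 3, edgeR adjusted p = 0.000961). Its abundant relative Sdcbp (syntenin) had a log2 fold change of -0.57 and was also called lower, as were the syndecans themselves.

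Target genes of growth factors that use heparan sulfate counted 3 higher and 10 lower of 16 tested (33.6% and 34.1% of all tested loci). All 8 tested targets of fibroblast growth factor signalling were lower, 5 of them by at least 2-fold, with a median log2 fold change of -1.39. Over all tested loci 34.1% were called lower and 17.7% were called with at least a 2-fold difference in either direction. Spry4 and Spry2, feedback inhibitors of that pathway, had log2 fold changes of -4.63 ± 0.27 and -2.05 ± 0.07 (SE, edgeR adjusted p = 1.1e-09 for Spry2), and the transcription factor Etv4 had -1.89 ± 0.08 (SE, edgeR adjusted p = 4.45e-09). Wnt targets differed among themselves, 3 higher and 1 lower of 5 tested, with Rnf43 higher at 2.03 ± 0.21 (SE, edgeR adjusted p = 5.67e-06). Of 3 tested hedgehog targets 1 was lower. These genes also respond to other signals, and whether heparan sulfate had a part in their levels was not tested.

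**Figure D5:**
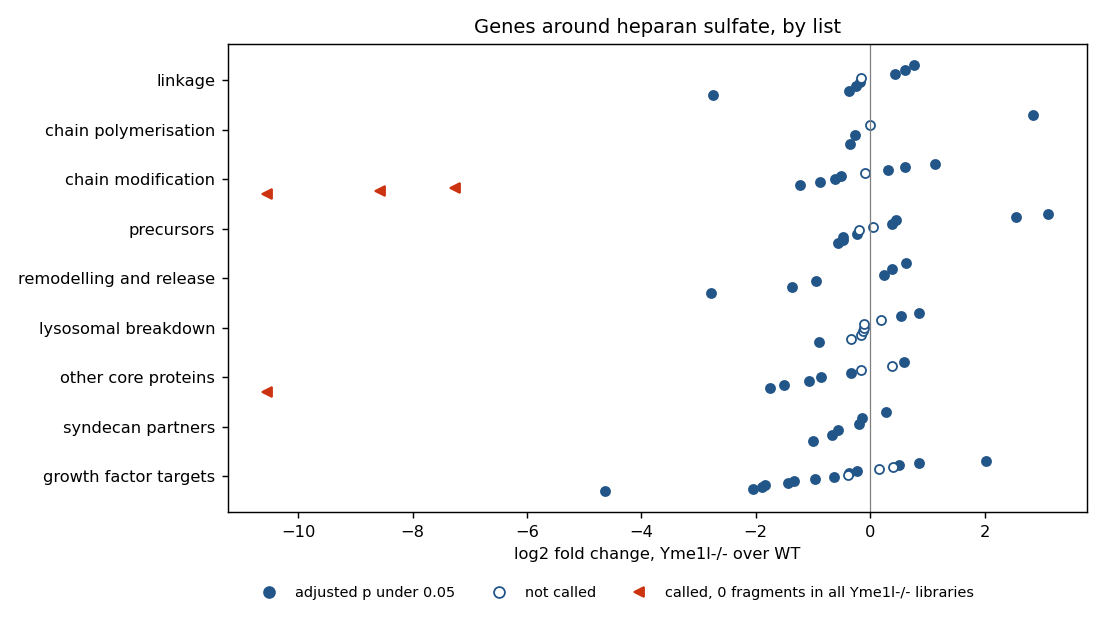
Log2 fold change of the 79 tested pathway genes in 9 lists, with filled points for calls (edgeR adjusted p under 0.05), open points for genes not called, and triangles for called genes with 0 fragments in all Yme1l-/- libraries, whose position depends on the prior count. The 3 triangles among chain modification genes are Hs3st1, Hs3st3a1 and Hs3st3b1.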

How the data were processed

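RNA of 3 WT and 3 Yme1l-/- cultures was sequenced from poly(A)-selected, stranded libraries. The authors mapped read pairs to GRCm38 (mm10, Ensembl 91) with HISAT2 2.0.4, assembled loci with StringTie 1.3.3 and compared genotypes with Cuffdiff 2.2.1. The deposited count table gives raw, unscaled fragment counts per locus. Treatment of multi-mapping fragments is not given in the sources used here. The second table deposited by the authors holds 1 pooled FPKM value per genotype, used here for transcript length, coordinates and an alternative set of shares and sums, together with the authors' log2 ratio, p-value and q-value, which were not used.

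The genotypes were compared with edgeR 4.0.16 in R 4.3.3 (filterByExpr, minimum count 10, TMM scaling, robust glmQLFit, two-sided quasi-likelihood test, no covariates). Benjamini-Hochberg adjustment covered the 13867 tested loci, with calls at an adjusted p under 0.05. The SE was obtained from the log2 fold change and the test statistic. The fit was tested on simulated data first. Genotypes follow the labels. Same-genotype cultures were further apart than counting noise allows (chi-square per degree of freedom of at least 8.48). Where a genotype had 3 counts or fewer in every library, a fold was computed against 3 counts in a library and is a lower bound that covers counting error only. The 10 genes and all lists were chosen with earlier results of these data known. From each pathway list, up to 3 calls per direction with at least a 2-fold difference were named, with Gpc2 and Gpc5, and genes named beyond this rule (such as Xylt2, Ext1, Ext2, Papss1, Slc35d1, Sumf1, Sdcbp, Hs6st1, Hs6st2 and the neighbours) were taken as relatives, substrates or neighbours of the named ones after their values were seen. Alternatives were RLE and upper-quartile scaling, DESeq2 1.42.0, other count filters, a replicate block, removed chromosome medians, leaving out each culture, and other transcript lengths. Family sums with other lengths, shares from the FPKM values themselves and bounds without a WT culture were added after seeing the data.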

Additional observations from a re-analysis of the deposited data

How the results depend on the processing

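Of the 10 genes, none changed direction under any alternative run. In each run 9 were called, except with the filter of at least 10 counts in every sample. That filter left 7 calls because Sulf1 and Gpc6 were not tested there, and Gpc3, not called in the main fit, was not tested either. The log2 fold change ranged from -8.77 to -8.36 for Sulf1, from 6.51 to 7.03 for Gpc6 and from 0.11 to 0.94 for Gpc3. The median over the genes was -0.68 with upper-quartile scaling, -0.85 with at least 10 counts in every sample, -0.84 with chromosome medians removed, and -0.78 to -0.71 when each culture was left out in turn. Calls over all loci ranged from 8528 to 10051, and pathway calls from 19 to 23 higher and from 37 to 45 lower. The same replicate numbers did not pair the cultures (correlations of deviations 0.198, -0.158 and 0.0482), and the replicate block gave 9794 calls, 9 of the 10 genes and a median of -0.74. Shares and sums moved with the length used: without length Sulf1 made up 68.8% of the sulfatases and Gpc1 76.1% of the glypicans in WT, and the glypican sum in Yme1l-/- was 90.7% of WT in place of 116%, or 110.3% with annotated lengths. The syndecan sum lay between 63.5% and 63.8% of WT with every length tried. Depth limits Gpc3 in both genotypes, Gpc6 in WT and Sulf1 in Yme1l-/-, where counts were 21 or fewer.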
